A study of Mus musculus with 4 samples.

Results

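The genes described here encode the proteins of the mitochondrial ribosome. They are the protein-coding genes of the mouse RefSeq annotation (build mm10, GRCm38.p6) whose symbol is Mrpl or Mrps followed by a digit, 78 of the 21887 protein-coding genes on the placed chromosomes. There are 49 Mrpl genes, named for the large subunit, and 29 Mrps genes, named for the small subunit. They lie on 17 chromosomes, with 11 of them on chromosome 11. The question was which of these genes carried a Pcbp1 chromatin immunoprecipitation sequencing (ChIP-seq) peak in naive mouse embryonic stem cells and in primed epiblast-like cells (EpiLC). The naive state resembles the epiblast before implantation, and EpiLC are the state that follows it in culture.

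The mitochondrial ribosome translates the few messenger RNAs made from mitochondrial DNA, all of them for subunits of the respiratory chain and the ATP synthase. Its ribosomal RNAs come from mitochondrial DNA, while its proteins are encoded by nuclear genes scattered over the chromosomes, made in the cytosol and imported. Many of these proteins descend from bacterial ribosomal proteins and others are found only in mitochondrial ribosomes. Pcbp1 is a poly(C)-binding protein with KH domains, known for binding C-rich RNA and single-stranded DNA.

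All libraries came from E14 Tg2a, an established mouse embryonic stem cell line, so every value describes 1 line. The Naive cells were kept for 3 passages on poly-L-ornithine in serum-free N2B27 medium with LIF, 1 uM of the MEK inhibitor PD0325901 and 3 uM of the GSK3β inhibitor CHIR99021. The EpiLC were made from such cells on fibronectin with 12 ng/ml bFGF, 20 ng/ml Activin A and 1% KOSR over 48 h. Both were fixed in 1% formaldehyde for 10 min, and the Pcbp1 antibody was used on chromatin fragments of about 500 bp. Each condition had 1 ChIP library and 1 input library. No replicate error exists for any value below, no test between the conditions was possible, and the intervals given cover counting error only.

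The Naive list held 12132 peaks and the EpiLC list 3494. Coverage was deeper in EpiLC: the genome-wide background at the peaks was 7.43 fragments against 4.004 in Naive, a ratio of 1.86. The lowest fold that reached the list at this background was 2.99 in Naive and 2.85 in EpiLC. Of 8 naive pluripotency markers, 6 had a peak at a gene end in the Naive list and 1 in the EpiLC list. Of 7 primed markers 0 had one in Naive and 5 in EpiLC, and of 4 core pluripotency markers 4 and 3. Of 3 fibroblast markers 0 had one in Naive and 1 in EpiLC, Thy1 with a fold of 5.43. Over all protein-coding genes the shares were 19.3% and 5.61%. The markers were chosen with earlier results of these data known, so they are no independent check of the labels. Peaks at gene ends do not measure expression. In a bulk library, fewer cells with binding and less binding per cell cannot be told apart.

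Peaks were assigned to genes by their summits, and a gene-end peak is one whose summit was no more than 1 kb from an annotated end of the gene. The sequences upstream of 6 of these genes are shown first, to put letters to the promoters compared below. They are the genes with the 3 highest Naive folds, a further pair with EpiLC peaks, and Mrpl28, which had no summit within 3000 bp in either list. Each is taken from the RefSeq promoter table of GRCm38.p6, cut to the bases that lie in no annotated coding gene, and runs 5′ to 3′ toward the gene. Capitals mark matches to the motifs that are spelled out with the promoter results.
Mrpl11, chr19:4962056-4962151, plus strand: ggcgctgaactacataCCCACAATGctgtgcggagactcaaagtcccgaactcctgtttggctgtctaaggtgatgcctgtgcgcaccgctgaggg
Mrps5, chr2:127587176-127587425, plus strand: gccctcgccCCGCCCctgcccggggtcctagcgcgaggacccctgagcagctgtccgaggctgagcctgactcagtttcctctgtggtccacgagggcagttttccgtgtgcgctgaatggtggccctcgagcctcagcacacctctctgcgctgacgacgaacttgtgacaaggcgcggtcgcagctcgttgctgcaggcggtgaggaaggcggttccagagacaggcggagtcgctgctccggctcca
Mrpl20, chr4:155802628-155802877, plus strand: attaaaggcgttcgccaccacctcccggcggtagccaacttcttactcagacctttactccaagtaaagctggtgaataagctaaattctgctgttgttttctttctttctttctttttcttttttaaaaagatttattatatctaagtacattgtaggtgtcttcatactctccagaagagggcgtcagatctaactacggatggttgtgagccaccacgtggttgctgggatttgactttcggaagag
Mrps27, chr13:99344679-99344766, plus strand: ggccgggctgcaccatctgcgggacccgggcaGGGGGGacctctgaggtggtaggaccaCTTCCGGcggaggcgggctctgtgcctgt
Mrps18a, chr17:46110754-46111003, plus strand: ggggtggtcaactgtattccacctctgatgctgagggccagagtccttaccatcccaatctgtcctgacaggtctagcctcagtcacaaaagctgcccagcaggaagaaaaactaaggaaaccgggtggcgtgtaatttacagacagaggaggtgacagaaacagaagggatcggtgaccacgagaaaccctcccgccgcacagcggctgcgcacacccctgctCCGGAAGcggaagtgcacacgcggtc
Mrpl28, chr17:26123255-26123502, plus strand: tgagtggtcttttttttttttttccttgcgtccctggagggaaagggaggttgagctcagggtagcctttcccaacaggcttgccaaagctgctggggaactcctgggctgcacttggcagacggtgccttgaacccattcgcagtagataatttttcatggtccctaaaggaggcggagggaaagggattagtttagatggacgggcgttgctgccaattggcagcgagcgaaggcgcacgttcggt
The capitals in Mrpl11 are the core letters of the Zfp143 motif, those in Mrps5 an Sp box on the other strand, those in Mrps27 a C tract and an Ets site, both on the other strand, and those in Mrps18a an Ets site. Mrpl20 and Mrpl28 had no match. The Mrpl11 summits lay past the last printed base, by 88 bp in Naive and 55 bp in EpiLC. The Mrpl20 summit lay 753 bp past the last printed base. The Mrps5 summits lay within the printed stretch, 112 and 75 bp before its last base.

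Naive cells showed a gene-end peak at 47 of the 78 genes. This is 60.3% (95% exact binomial interval 48.5 to 71.2), where 19.3% of all protein-coding genes had one. EpiLC showed one at 8 genes. This is 10.3% (interval 4.53 to 19.2), where 5.61% of all protein-coding genes had one, a share inside that interval. A gene-end peak in both lists was found at 7 genes, against 4.09% of all genes. These 7 make up 14.9% of the members with a Naive peak and 87.5% of those with an EpiLC peak. Over all genes the same shares were 21.2% and 72.9%. The Naive list alone had a peak at 40 genes, the EpiLC list alone at Mrpl14, and neither list at 30. Because the Naive list is longer, it was also shortened to its 3494 peaks with the highest −log10 q. It then reached 13 of the 78 genes, or 16.7%, where 5.44% of all genes had a peak. Those 13 were Mrpl11, Mrpl12, Mrpl17, Mrpl19, Mrpl20, Mrpl21, Mrpl30, Mrpl32, Mrpl39, Mrpl51, Mrps5, Mrps18c and Mrps27.

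The enrichment of these peaks was moderate. The fold is the authors' value, the fragment pileup at the summit over the caller's background, each with 1 added. Taking the highest gene-end peak of each gene, the median fold of the 47 genes in Naive was 4.68 (quartiles 3.98 and 5.32). It was 4.58 (quartiles 3.99 and 5.44) over all genes with a Naive gene-end peak. Of the 47, 28 lay above that overall median, with 2 in the highest 10% and 4 in the lowest 10% of all such genes. In EpiLC the median of the 8 genes was 3.02, against 3.34 over all genes with an EpiLC gene-end peak, and 2 of the 8 lay above that value. The median height of these Naive peaks was thus close to that of other genes, although a larger share of the set had one.

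The highest Naive fold belonged to Mrpl11, the counterpart of bacterial L11 at the base of the ribosomal stalk, where translation factors dock. Mrpl11 (chr19:4962152-4966995) had a fold of 10.6 (95% Poisson interval 7.96 to 13.8) from a pileup of 52, at a peak spanning chr19:4962046-4962601. Mrps5 (chr2:127587426-127603986), the counterpart of a small-subunit protein, followed with 7.63 (5.53 to 10.3) at chr2:127587167-127587576. The lower bound for Mrpl11 lay above the fold of every other gene of the set, although the intervals of Mrps5 and the genes next to it reached past that bound. Mrpl20 (chr4:155802878-155808831), a large-subunit protein with a bacterial counterpart, had 6.59 (4.57 to 9.23), with its summit 752 bp downstream of the annotated start and so well inside the gene.

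The next 5 genes lay close together. Mrpl51, a large-subunit protein without a bacterial counterpart, had 6.20 (4.41 to 8.49). Mrpl19 had 6.19 (4.24 to 8.76) and Mrpl17 had 5.94 (4.05 to 8.45), and both have bacterial counterparts. Mrpl12, the counterpart of the L7/L12 stalk protein and also reported to bind the mitochondrial RNA polymerase, had 5.82 (4.08 to 8.06). Mrps18c, a paralogue of bacterial S18 in the small subunit, had 5.79 (3.92 to 8.29). The intervals of these 5 genes overlapped each other, so their order is not resolved at this depth.

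At the lower end, Mrps10 had a Naive fold of 2.66 (1.65 to 4.07) with a pileup of 19. Mrps12, the counterpart of the decoding protein S12, had 3.21 (1.99 to 4.92). Mrps11 and Mrpl46 are divergent neighbours on chromosome 7, 1 for each subunit, and share a single peak with a fold of 3.36 (2.24 to 4.87). The remaining genes with a Naive peak fell between these lowest values and that of Mrps18c. In Naive 2 genes had more than 1 gene-end peak. Mrpl2 had a summit 149 bp downstream of its start with a fold of 4.67 and a further summit 643 bp beyond an annotated end with 4.01. Mrpl43 had summits 254 bp downstream and 132 bp upstream of its start, with folds of 4.72 and 3.68. The 47 genes thus rested on 48 distinct peaks.

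**Figure D1:**
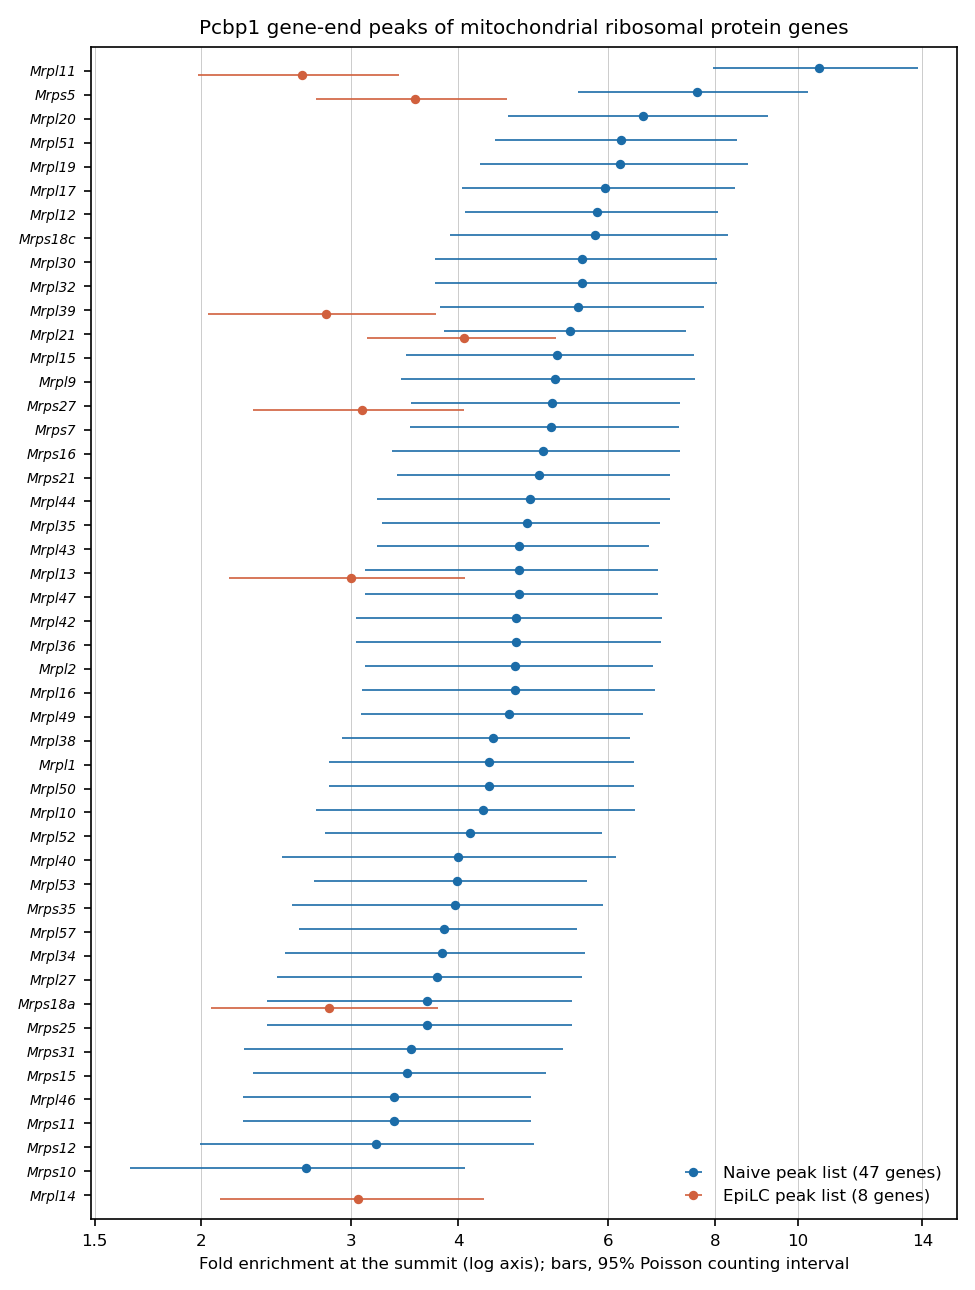
Fold enrichment at the summit of the highest gene-end peak (horizontal log axis, no unit) for each of the 48 mitochondrial ribosomal protein genes with a peak in at least 1 list, one line per gene, with 95% Poisson counting intervals as bars. Naive values run from 2.66 at Mrps10 to 10.6 at Mrpl11, and the 8 EpiLC values from 2.63 to 4.07.

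Split by subunit, 33 of 49 Mrpl genes had a Naive peak, or 67.3% (52.5 to 80.1), with a median fold of 4.71. Among the Mrps genes it was 14 of 29, or 48.3% (29.4 to 67.5), with a median fold of 3.82. The intervals of the 2 shares overlapped, and the difference was not tested since genes are not replicates. In EpiLC 5 Mrpl genes (10.2%) and 3 Mrps genes (10.3%) had a peak. Symbols do not always name the subunit: Mrps18a and Mrps30 are placed in the large subunit by structural work. Grouped by origin, 30 of 48 genes with a bacterial counterpart (62.5%) and 17 of 30 without one (56.7%) had a Naive peak. In EpiLC these groups had 6 (12.5%) and 2 (6.67%).

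Of the 8 genes with an EpiLC peak, 7 also had a Naive peak. Mrpl21 (chr19:3282997-3292837), a large-subunit protein with a bacterial counterpart, had the highest EpiLC fold, 4.07 (3.13 to 5.21), against 5.41 in Naive (3.85 to 7.40). Its summits in the 2 lists were 20 bp apart. Mrps5 had an EpiLC fold of 3.56 (2.73 to 4.56), and its interval did not overlap the Naive interval. Mrps27 (chr13:99344767-99415562), a pentatricopeptide repeat protein of the small subunit, had 3.09 (2.30 to 4.06) against 5.15 in Naive (3.53 to 7.28), with summits 7 bp apart. Mrpl13 had 3.00 (2.15 to 4.07) against 4.71 (3.11 to 6.87), and Mrps18a had 2.82 (2.05 to 3.79) against 3.68 (2.39 to 5.44). For Mrpl21, Mrps27, Mrpl13 and Mrps18a the intervals of the 2 lists overlapped. The summits of Mrpl21, Mrpl13, Mrps27 and Mrps5 also lay within 1 kb of another coding gene: Ighmbp2, Mtbp, Ptcd2 and Zfp661, respectively. Ighmbp2 ended 10 bp from the summit in Naive and 30 bp in EpiLC, against 23 and 43 bp for Mrpl21. The other gene was the closer one in both lists except at Mrps5, so these folds cannot be assigned to the member alone.

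Mrpl39, a mitochondria-specific protein of the large subunit, had an EpiLC fold of 2.80 (2.04 to 3.76) against 5.52 in Naive (3.81 to 7.77), and its intervals did not overlap. Its summits were 496 bp apart, 62 bp downstream of the start in EpiLC and 434 bp upstream of it in Naive, and the other 6 genes had summits no more than 115 bp apart. Mrpl11 stood at opposite ends of the 2 lists: highest of the set in Naive, it had the lowest deposited EpiLC fold, 2.63 (1.99 to 3.41), at chr19:4962090-4962521. The fold depends on the local background that the caller used. At the Mrpl11 summit that background equalled the genome-wide level in Naive and was 2.68 times that level in EpiLC, while the pileup was 52 in Naive and 54 in EpiLC. Over the genome-wide background of its own list, the Mrpl11 pileup was 13.0 in Naive and 7.27 in EpiLC, below Mrpl21 (8.21) and Mrps5 (8.07) but above the other 5 EpiLC members, so its last place holds for the deposited fold alone.

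Across the shared genes, the Naive fold was higher in 7 of 7, as it was in 805 of the 895 genes with a peak in both lists (89.9%). The median ratio of Naive to EpiLC fold was 1.67 in the 7 and 1.66 in the 895. With pileups over each list's genome-wide background, the median ratio was 1.19 in the 7, with a range of 1.02 to 1.79, and 1.11 in the 895. Intervals lay apart in 3 of the 7, Mrpl11, Mrps5 and Mrpl39, and in 332 of the 895. Local background was raised at these genes mainly in EpiLC: the median over the members with a peak was 1.92 times the genome-wide level there and 1.20 times in Naive, against 1.85 and 1.13 for all genes with a peak. Its part in the differences between lists was not tested.

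**Figure D2:**
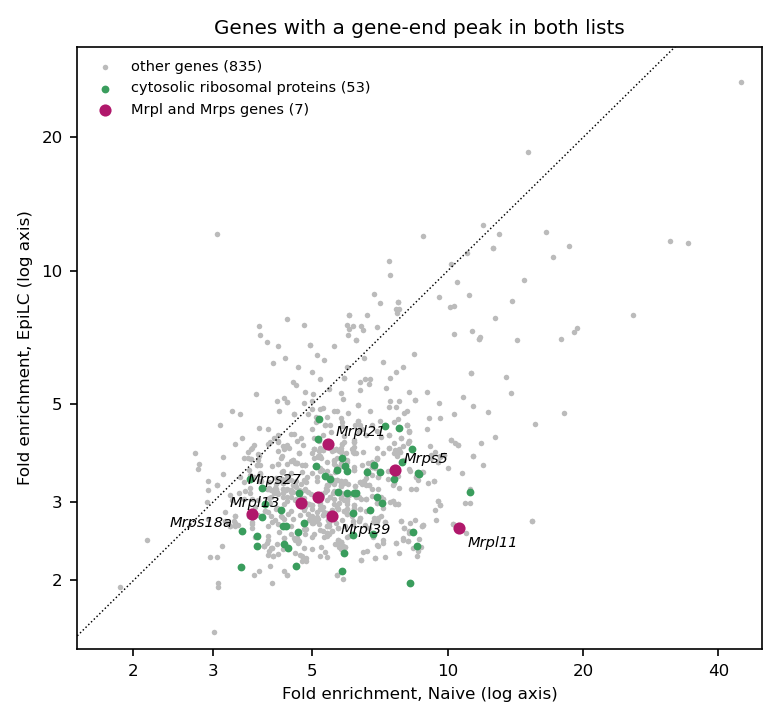
Fold enrichment in Naive (horizontal log axis) and EpiLC (vertical log axis) for the 895 genes whose ends carried peaks in both lists, with 1 point per gene, the 7 mitochondrial ribosomal protein genes named and the dotted line marking equal folds. All 7 lie below the line, with Mrpl11 farthest from it at 10.6 and 2.63.

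Mrpl14 (chr17:45685722-45698495), a large-subunit protein with a bacterial counterpart, was the member with a peak in EpiLC alone. Its EpiLC peak at chr17:45685567-45685970 had a fold of 3.05 (2.10 to 4.29) from a pileup of 31, and the nearest Naive summit was 55876 bp away. The summit lay within 1 kb of both Mrpl14 and its divergent neighbour Tmem63b. The lowest pileup that reached the EpiLC list at the genome-wide background was 23, and the median pileup of that list was 45, so this peak was in its lower range.

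Neither list had a gene-end peak at 30 genes, namely Mrpl3, Mrpl4, Mrpl18, Mrpl22, Mrpl23, Mrpl24, Mrpl28, Mrpl33, Mrpl37, Mrpl41, Mrpl45, Mrpl48, Mrpl54, Mrpl55, Mrpl58, Mrps2, Mrps6, Mrps9, Mrps14, Mrps17, Mrps18b, Mrps22, Mrps23, Mrps24, Mrps26, Mrps28, Mrps30, Mrps33, Mrps34 and Mrps36. Among them are Mrpl45, which tethers the ribosome to the inner membrane, Mrpl58, a peptidyl-tRNA hydrolase built into the large subunit, and Mrps36, which is now assigned to the oxoglutarate dehydrogenase complex. Of the 31 genes without a Naive gene-end peak, 7 had a Naive summit 1 to 3 kb away, 8 had one 3 to 10 kb away and 16 had none within 10 kb. The median distance was 12090 bp. No such distances are given here for all genes, so these values describe the set alone. Gene ends are the outer limits of the annotated gene, and 6 of the 31 had a Naive summit within 1 kb of the start in the promoter table instead. They were Mrps2 (fold 6.18, 41 bp downstream), Mrpl18 (6.88, upstream at −519 bp), Mrpl48 (4.30, 121 bp downstream), Mrpl45 (4.26, 225 bp downstream), Mrpl24 (3.94, 272 bp downstream) and Mrps23 (3.80, 116 bp downstream). The Mrpl18 value was also the Naive gene-end fold of its neighbour Tcp1, so it cannot be assigned to Mrpl18 alone. Counting a summit near either a gene end or a start in the promoter table, a choice made after seeing the data, 53 members had a Naive peak, against 21.0% of all genes, and 9 an EpiLC peak, against 6.27%. A missing peak does not show that Pcbp1 was absent, since it means only that the threshold was not reached.

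The 1 kb limit divided a few genes narrowly. In Naive the members just inside were Mrps31, 985 bp from its summit with a fold of 3.53, and Mrpl1, at 778 bp with 4.35. Measured from the annotated transcript start, those summits were only 94 and 161 bp away. Just outside were Mrpl45 at 1018 bp with 4.26 and Mrpl48 at 1068 bp with 4.78, the latter at a peak of the neighbouring gene Rab6a. In EpiLC the farthest inside were Mrpl14 at 230 bp and Mrps27 at 182 bp. Just outside were Mrpl18 at 1101 bp with 3.58, at a peak of its neighbour Tcp1, and Mrps18b at 1572 bp with 8.81 (7.40 to 10.4). The value at Mrps18b was higher than the EpiLC fold of every member within the limit.

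The rule accepts a summit within 1 kb of either end of a gene, so nearness to a start is partly built in. Positions are therefore given beside those of all genes chosen by the same rule. The strand was known for 42 of the 47 genes, and 41 of these had the summit within 1 kb of an annotated start (97.6%, against 91.1% of all genes with a Naive peak). Within 250 bp of a start lay 31 of the 42 (73.8%, against 55.4%). The median position was 58 bp downstream of the start (quartiles −81 and 135), against 16 bp (quartiles −229 and 184) over all genes. Of the 41, 24 lay downstream and 17 upstream. The exception was Mrpl36, whose gene-end summit was at −2745 bp from the tabulated start, 239 bp from an annotated gene end, and beside Ndufs6, a complex I subunit. A further Naive summit of Mrpl36, with a fold of 5.72, lay 122 bp downstream of that start. In EpiLC all 7 genes with a known strand had the summit within 1 kb of a start, against 88.1% of all genes with an EpiLC peak. Of the 7, 6 lay upstream, with a median of −80 bp. Over all genes 436 lay upstream and 425 downstream, with a median of −5.5 bp. With 7 genes this difference was not tested.

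**Figure D3:**
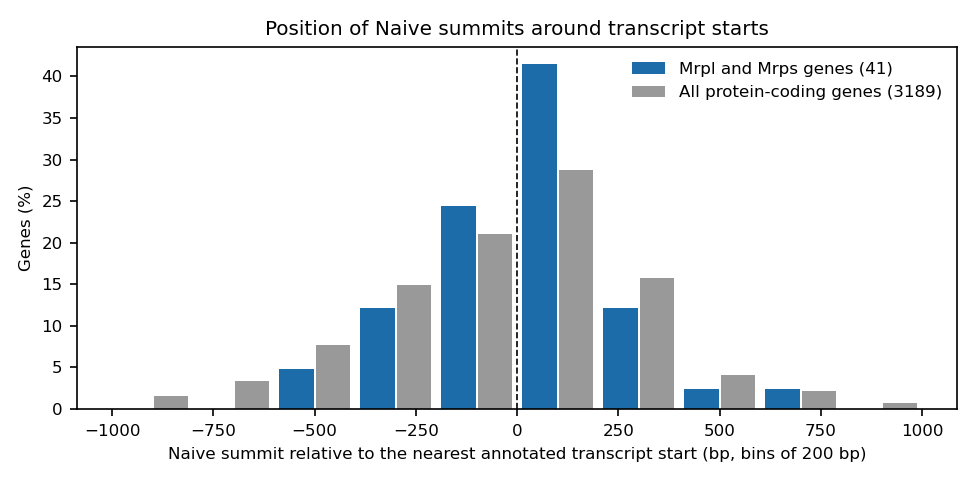
Position of the Naive summit relative to the nearest annotated transcript start (bp, bins of 200 bp, dashed line at the start) as the share of genes in percent, for 41 mitochondrial ribosomal protein genes and for all protein-coding genes with a summit within 1 kb of a start. The tallest bin, 0 to 200 bp downstream, holds 41.5% of the members and 28.7% of all genes.

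Many of these peaks lay near another gene as well. At 27 of the 47 genes with a Naive peak, the summit also lay within 1 kb of an end of another coding gene (57.4%, against 36.2% over all genes with a Naive peak). The other gene was the closer one in 14 cases, and in 19 the neighbour was transcribed divergently. Both counts lack a share over all genes, so they cannot be read as particular to the set. Several neighbours also serve mitochondria: Mrpl43 is paired with Twnk, the mitochondrial DNA helicase, Mrps12 with Sars2, the mitochondrial seryl-tRNA synthetase, Mrpl47 with the complex I subunit Ndufb5, and Mrps27 with Ptcd2, a mitochondrial pentatricopeptide repeat protein. Others do not: Mrpl32 is paired with Psma2, a proteasome subunit, Mrpl49 with Fau, Mrpl40 with the histone chaperone Hira, and Mrpl51 with the condensin subunit Ncapd2, whose end was 103 bp from the summit. The neighbours named here are examples, and neighbours were not counted by function. In EpiLC 5 of 8 peaks also lay at another gene (62.5%, against 30.9% over all genes with an EpiLC peak). The other gene was the closer one in 3 of them. These peaks cannot be assigned to either gene from position alone.

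Gene spacing was looked at for all 78 members. Another coding gene ended within 1 kb of 44 members (56.4%), compared with 24.8% of all genes. Of these 44, 30 had a Naive peak (68.2%, against 36.8% of all genes with such a neighbour). Of the 34 members without such a neighbour, 17 had a Naive peak (50%, against 13.6%). The members' share was thus above that of all genes both with and without a close neighbour. In EpiLC the shares were 11.4% against 9.60% with a neighbour and 8.82% against 4.29% without. The 6 annotated Mrp pseudogenes on placed chromosomes had 0 gene-end peaks in either list, where 19.3% and 5.61% of all protein-coding genes had one. So few pseudogenes cannot be told apart from those shares.

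Other genes of mitochondrial translation were counted from lists of fixed membership. All 5 mitoribosome proteins with other names, Dap3, Aurkaip1, Ptcd3, Gadd45gip1 and Chchd1, had a Naive peak, with folds from 3.32 to 6.16. Chchd1 (6.16), Dap3 (4.65) and Ptcd3 (4.40) were the highest, and Ptcd3 also had an EpiLC peak, at 2.05. Of 16 mitochondrial translation factors and messenger RNA partners, 9 had a Naive peak (56.3%) and 4 an EpiLC peak (25%). Of 26 mitoribosome assembly genes, 18 had a Naive peak (69.2%) and 1 an EpiLC peak (3.85%, interval 0.0973 to 19.6). Over all protein-coding genes the shares were 19.3% in Naive and 5.61% in EpiLC, the latter inside that interval.

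Over those 42 translation and assembly genes, the highest Naive folds were those of Taco1, an activator of Cox1 translation (6.19, and 3.15 in EpiLC), of Mtg1, an assembly GTPase (6.18, and 4.14 in EpiLC), and of Fastkd2 and Tfb1m, which act on the mitochondrial 16S and 12S ribosomal RNAs and were tied at 5.60. The remaining EpiLC peaks were those of Slirp (3.97) and Lrpprc (2.90), which together stabilise mitochondrial messenger RNAs, and of Oxa1l, the inner membrane insertase (3.71). All 5 genes with an EpiLC peak also had a Naive peak. Of 10 genes for mitochondrial DNA maintenance and transcription, 6 had a Naive peak and 0 an EpiLC peak, against 19.3% and 5.61% of all protein-coding genes. The EpiLC interval for these 10 genes was 0 to 30.9%, so the overall share lay inside it. Among the 6 with a Naive peak, Twnk rests on the Mrpl43 peak already counted for the set. The Naive peaks of Dap3, Ptcd3, Fastkd2 and Slirp also lay at an end of another coding gene. The same held for the EpiLC peaks of Ptcd3 and Slirp.

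The cytosolic ribosome gave another pattern. Of 47 cytosolic Rpl genes, 39 had a Naive peak (83.0%) and 32 an EpiLC peak (68.1%, interval 52.9 to 80.9). Of 31 cytosolic Rps genes, 27 (87.1%) and 24 (77.4%, interval 58.9 to 90.4) had one. The EpiLC share of the mitochondrial ribosomal protein genes was 10.3% (interval 4.53 to 19.2). Genes are not replicates and some share a peak, so the intervals are no test between these groups. Of the genes with a Naive peak, 79.5% of Rpl and 81.5% of Rps genes also had an EpiLC peak, against 14.9% of the mitochondrial set. Nuclear respiratory chain genes were nearer to the mitochondrial ribosome: 52 of 88 had a Naive peak (59.1%) and 14 an EpiLC peak (15.9%, interval 8.98 to 25.3). These 88 were taken by symbol and keep isoform genes such as Cox4i2 and Cox8b. Paralogues such as Rpl22l1 were left out of the Rpl group, and the effect of this on the shares was not tested. In the Naive list cut to its first 3494 peaks by −log10 q, the shares were 16.7% for the mitochondrial ribosome, 22.7% for the respiratory chain, 42.6% for Rpl and 51.6% for Rps genes. These are counts of genes in 2 peak lists and no test between groups was run.

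**Figure D4:**
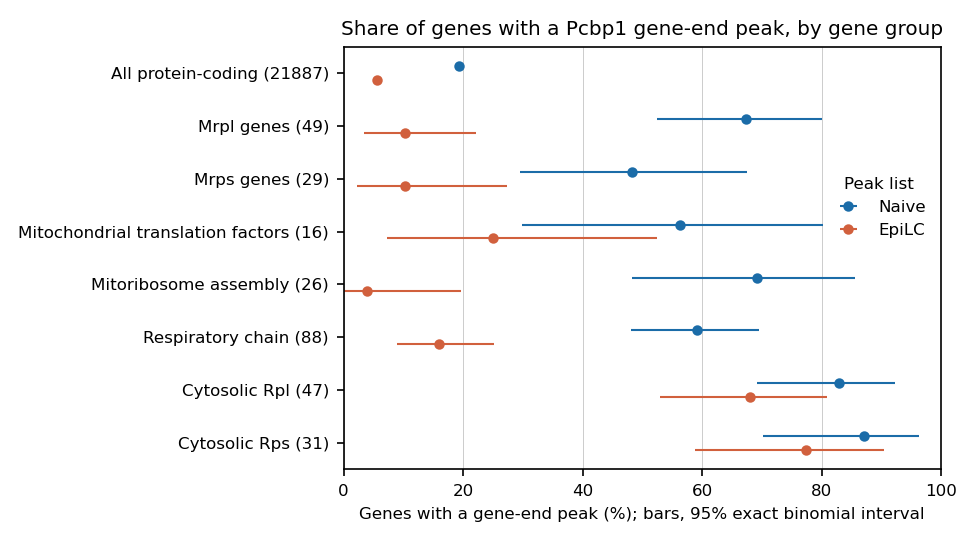
Share of genes with a Pcbp1 gene-end peak (horizontal axis, percent) in the Naive and EpiLC lists for 8 groups of genes, with the number of genes in brackets and 95% exact binomial intervals as bars. Mrpl and Mrps genes lie at 67.3% and 48.3% in Naive and at 10.2% and 10.3% in EpiLC, while the cytosolic Rpl and Rps genes stay above 68% in both lists.

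The promoter table held 69 of the 78 genes and 17492 coding genes in all. Over the 250 bases upstream of the start, the members' median GC content was 58.4% against 55.2%, and their median ratio of observed to expected CpG was 0.769 against 0.538. Promoters with at least 55% GC and a ratio of at least 0.6, here called CpG-rich, made up 40 of the 69 (58.0%) and 37.2% of all. Among CpG-rich promoters, 26 of 40 members had a Naive peak (65.0%), against 32.4% of all genes with such a promoter. Among the others, 16 of 29 members had one (55.2%), against 12.7%. In EpiLC the shares were 12.5% against 8.70% for CpG-rich promoters and 6.90% against 3.75% for the rest. The members' share in Naive was thus above that of all genes in both classes of promoter.

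Short motifs were searched in the same 250 bases on both strands, and matches of different motifs were allowed to overlap. The letters CCCCC, a run of the kind Pcbp1 binds in RNA, were present in 29 of 69 members (42.0%) and in 49.8% of all promoters. A Naive peak was found at 18 of the 29 members with this C tract (62.1%) and at 24 of the 40 without it (60.0%). Over all promoters these shares were 22.1% and 17.99%. The Ets site CCGGAAG was present in 16 members (23.2%, against 9.26% of all promoters). A Naive peak was found at 62.5% of members with it and 60.4% without, against 43.3% and 17.6% over all promoters. The Nrf1 site GCATGCGC, read by a factor known for activating nuclear genes of mitochondria, was present in 8 members (11.6%, against 2.97%). Here the shares with a Naive peak were 62.5% with the site and 60.7% without, against 37.6% and 19.5% over all promoters. The YY1 site AAGATGGC was found in Mrps11, Mrps12, Mrpl32 and Mrpl36 (5.80%, against 1.53%), and all 4 had a Naive peak, as did 112 of the 267 genes with these letters in all (41.9%). The gene-end peak of Mrpl36 is the one at −2745 bp, and its other summit lay 122 bp downstream of the start.

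The Sp box GGGCGG was present in 33 members (47.8%, against 42.8%), of which 17 had a Naive peak (51.5%), compared with 25 of the 36 without it (69.4%). Over all promoters the order was the other way, with 27.1% for those with the box and 14.8% for those without. The cyclic AMP response element TGACGTCA was present in 2 members (2.90%, against 1.98%) and the TATA box letters TATAAA in 4 (5.80%, against 12.4%). Parts of the Zfp143 motif were searched in 2 forms. Its first part ACTACAA was present in 4 members (5.80%, against 3.38%). Its core CCCANNATG was present in Mrpl11, Mrpl50 and Mrps22 (4.35%, against 3.91%), and this form was added after the promoters had been read. A match is a run of letters, not a binding site, and the window covers only 250 bases.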

How the data were processed

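Pcbp1 ChIP-seq was measured in 1 library per condition with 1 input library each. Per the submitters' processing notes, fastp, Bowtie2, Picard and MACS2 were used with GRCm38 (mm10). The control used for peak calling is not given in the sources here. The authors deposited 1 narrowPeak list per condition. Its fold enrichment is a ratio computed by the authors' caller at each summit. Significance was deposited as −log10 of the p-value and of the q-value for every peak. The lowest deposited −log10 q rounded to 2.02 in each list. The remaining deposited column gives the summit's distance from the peak start, in bp as an offset.

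Fold and p-value were solved for a whole-number pileup and a background, with the p-value met within 0.001 for 100% of Naive and 99.97% of EpiLC peaks. Read totals were not used here. The lowest background of a list was taken as genome-wide. Poisson intervals come from the pileup and exact binomial intervals from gene counts, both at 95%. The code was tested on simulated data. Python 3.11.15 was used with numpy 2.4.6, pandas 2.3.3, scipy 1.17.1 and matplotlib 3.10.9. RefSeq tables of GRCm38.p6 gave gene ends, promoters and, through them, strand.

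The members and the gene lists were chosen with earlier results of these data known. Genes named with values were the 8 highest Naive and 6 highest EpiLC folds, those in both lists or in EpiLC alone, the 3 lowest Naive folds, the 2 nearest either side of the 1 kb limit in each list, and those with several peaks. From the related lists, the 3 highest Naive and up to 5 EpiLC genes were taken for each of the mitoribosome and the translation and assembly lists. Promoters were printed for the 3 highest Naive folds, the next 2 by EpiLC fold and the first gene by symbol without a nearby summit. Mrpl21, Mrpl14, Mrpl22 and Mrpl23 were passed over because fewer than 50 of their promoter bases lay outside annotated coding genes. The alternatives concern thresholds, windows, list length, gene assignment, overlap and the scale of the fold.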

Additional observations from a re-analysis of the deposited data

How the results depend on the processing

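The count of Mrpl and Mrps genes with a gene-end peak stayed within 1.5 times its value in most settings. In Naive, with the share of all genes in brackets, 47 genes became 41 with −log10 q of at least 5 (15.4%), 44 in a 500 bp window (16.4%), 54 in a 3000 bp window (23.8%), 51 with any peak base in the window (20.2%) and 33 when a peak counted only for its nearest gene (16.3%). With annotated starts alone, 48 of the 69 genes in the promoter table had one (20.6%). The count fell to 17 with folds of at least 5 (6.83%) and to 13 with the list shortened to 3494 peaks (5.44%). In EpiLC, 8 genes became 7 with the higher −log10 q (4.59%), 8 in the 500 bp window (4.27%), 10 in the 3000 bp window (7.53%), 10 with any peak base (5.92%), 8 by starts (5.81%), 5 with nearest genes only (4.78%) and 0 with folds of at least 5 (0.676%). The 7 genes in both lists (4.089%) became 5 with the shortened Naive list (2.399%) and 9 in the 3000 bp window (5.455%). They stayed at 7 with the higher −log10 q (3.198%) and in the 500 bp window (3.121%). Of the 48 Naive gene-end peaks of the set, 7 overlapped an EpiLC peak by at least 1 bp, against 18.5% of all Naive gene-end peaks. The 7 became 5 when a larger overlap of both peaks was required (12.3%) and 6 with summits within 200 bp (15.9%). On the scale of pileup over genome-wide background, the median of 4.68 in Naive became 6.49 and that of 3.02 in EpiLC became 6.12. These medians cover 47 and 8 genes, and the cause was not tested. Gene ends and starts together, added after seeing the data, gave 53 and 9 genes. Of the alternatives, 19 kept their value within these bounds and 6 did not. No paired analysis was possible because each condition had 1 ChIP library.

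With 1 library per condition, no value carries biological error. The smallest EpiLC pileup called at the genome-wide background was 23, against 14 in Naive, which limits what either list can show. Peaks at shared promoters belong to no single gene.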
